A study of Arabidopsis thaliana with 6 samples.

Results

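The core and linker histone genes of Arabidopsis thaliana were followed through repeated dehydration. They are the 39 loci taken, by locus number, as the genes for H4, H3.1, H3.3, canonical H2A, the H2A.W, H2A.X and H2A.Z variants, H2B and the linker histone H1, out of 33555 genes listed. All 39 had an FPKM (fragments counted for a gene, scaled to transcript length and to the mapped fragments of the library) above 0 in all 6 libraries and entered every test. Poly(A) RNA from rosette leaves was sequenced from plants before stress (W), during the first air-drying (S1) and during the third air-drying after intervening recovery (S3), with 2 libraries from independent biological samples in each condition. All plants were Col-0 by ecotype, although the labels also carry WS as genotype, and were grown in soil under a 12-h photoperiod. W plants had been lifted from soil and kept overnight in humid chambers, S1 plants were then dried for 2 h, and S3 plants received 2 h of drying with 22 h of rehydration after each earlier drying. No library came from plants kept watered for as long as the S3 plants were handled. The number of dryings and the time out of soil therefore cannot be told apart in S3. The age of the plants was not given in the sources used here.

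Each nucleosome wraps DNA around H2A, H2B, H3 and H4, and H1 binds the linker DNA between nucleosomes. The canonical core histones are made in bulk while DNA is being copied, H3.1 among them, whereas H3.3 and other variants can replace them in chromatin that is not being copied. H2A.Z marks promoters and gene bodies, H2A.W packs the heterochromatin of plants, H2A.X is phosphorylated at DNA breaks, and HIS1-3 is an H1 known to be induced by water deficit and abscisic acid. Unlike most animal histone transcripts, those of plants are polyadenylated, so that a poly(A) library records them.

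Of the genes, 21 have a coding sequence without an intron in the RefSeq annotation of TAIR10.1, namely all 8 H4, all 5 H3.1 and all 8 H2B genes. The 18 others, which include every H3.3, H2A and H1 gene, have at least 1 intron in the coding sequence. The 250 bases before each annotated gene start were searched on both strands for the plant histone octamer CGCGGATC, for the hexamer core ACGTCA and for the abscisic acid response element core ACGTG. The octamer stood before 10 of the 39 genes (25.6%), against 37 of all 27443 protein-coding genes with such a window (0.135%). It was found before 3 of 5 H3.1, 2 of 8 H4, 2 of 4 canonical H2A, 1 of 3 H2A.W, 1 of 3 H3.3 and 1 of 3 H1 genes and before no H2A.X, H2A.Z or H2B gene. The following stretches of TAIR10.1 are shown because all 10 genes share the octamer, which is in capitals, while 7 of them were called lower in S3 than in W and 3, AT1G07660, AT4G40040 and AT1G06760, were not. HTA10 holds another octamer nearer its start, not shown.
AT1G09200, H3.1 (chr1:2972406-2972435, minus strand): tcgtaccttcaCGCGGATCagtgttagaaa
AT1G09200, H3.1 (chr1:2972335-2972364, minus strand): ctgtgatttcaCGCGGATCgtgatagaaac
AT5G65360, H3.1 (chr5:26120689-26120718, minus strand): tttagacgtgaCGCGGATCactaaaattaa
AT5G10400, H3.1 (chr5:3271059-3271088, minus strand): ttaacacaggaCGCGGATCgtaaagataca
AT5G59690, H4 (chr5:24051392-24051421, plus strand): cactgccatcaCGCGGATCactaatatgaa
HTA10, H2A (chr1:18926726-18926755, plus strand): attcactctgaCGCGGATCctgaatctcga
HTA13, H2A (chr3:7229311-7229340, minus strand): ataaacaatcaCGCGGATCgatgttactgc
HTA6, H2A.W (chr5:24116318-24116347, minus strand): atacatagtcaCGCGGATCgtgctttattt
AT1G07660, H4 (chr1:2368696-2368725, plus strand): tacagatttcaCGCGGATCgcaatcttgga
AT1G06760, H1 (chr1:2077777-2077806, plus strand): aacaatgactaCGCGGATCgctactctttt
AT4G40040, H3.3 (chr4:18558946-18558973, plus strand): acaaaccgtCGCGGATCgctgaaataaa

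The hexamer core stood before 7 of 8 H2B genes (87.5%), against 7.69% of all protein-coding genes. In all 7 it was preceded by C, so that the same letters read on the other strand also hold ACGTG, and the ABRE core was likewise found before 7 of 8 H2B genes (87.5%, against 22.9% of all genes). The hexamer core is in capitals in the following H2B stretches. They are shown because HTB2 and HTB9 were called lower in S3 than in W and AT2G28720 was not.
HTB2 (chr5:7652893-7652920, minus strand): caaaagtaaccACGTCAgctatccacgc
HTB9 (chr3:16898153-16898180, minus strand): ccaatattgacACGTCAtcgatcccgct
AT2G28720 (chr2:12326747-12326774, plus strand): taacgtgatccACGTCAccaacgatact
None of the 3 motifs was found in the 250 bases before HIS1-3, which says only that these letters are not in that window.

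Watered and S1 values came from 1 quantification and S3 values from another, as the file headers show, so levels set across them rest on separate runs, and the watered libraries were made from longer reads than the stressed ones. The deposited values are FPKM without read counts, the mapped reads that the study lists for each library were not used here, and the listed FPKM summed to between 891240 and 974046. The spread measured here is that between 2 libraries. RCA and RBCS2B, photosynthesis genes of leaves, were high in all 6 libraries, the 3 root genes summed to at most 0.115 FPKM, and 5 of 6 shoot apex genes were at or near 0 throughout. RBCS1A and LHCB1.3 are listed at 0 in both W libraries although leaves use them, so an exact 0 in these files can be a failed estimate. The stress markers RD29B and RAB18 were higher in S1 and again in S3.

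A gene was called when its limma adjusted p was at most 0.05, its absolute log2 fold change on the log2(FPKM + 1) scale at least 1 and its mean above the 25th percentile, 0.374 FPKM, in a compared condition. The tests ran over 24759 genes. In S1 relative to W, 15 of the 39 histone genes (38.5%) were lower and 1 (2.56%) was higher, while of all genes tested 12.1% were lower and 13.7% higher (25.8% in either direction). Between S3 and S1, 14 (35.9%) were lower in S3 and 3 (7.69%) higher, against 6.71% lower and 5.55% higher among all genes (12.3% in either direction). Between S3 and W, 23 (59.0%) were lower in S3 and 2 (5.13%) higher, against 14.4% lower and 15.3% higher among all genes (29.7% in either direction). Written as first and second sign for S1 relative to W and S3 relative to S1, 9 genes were [-/-], 5 were [-/=], 5 were [=/-], and [-/+], [+/+] and [=/+] had 1 gene each (AT2G28720, HIS1-3 and HTA12), which leaves 17 genes as [=/=]. The share of each pattern over all genes tested was not counted, so whether these counts are unusual cannot be judged.

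**Figure D1:**
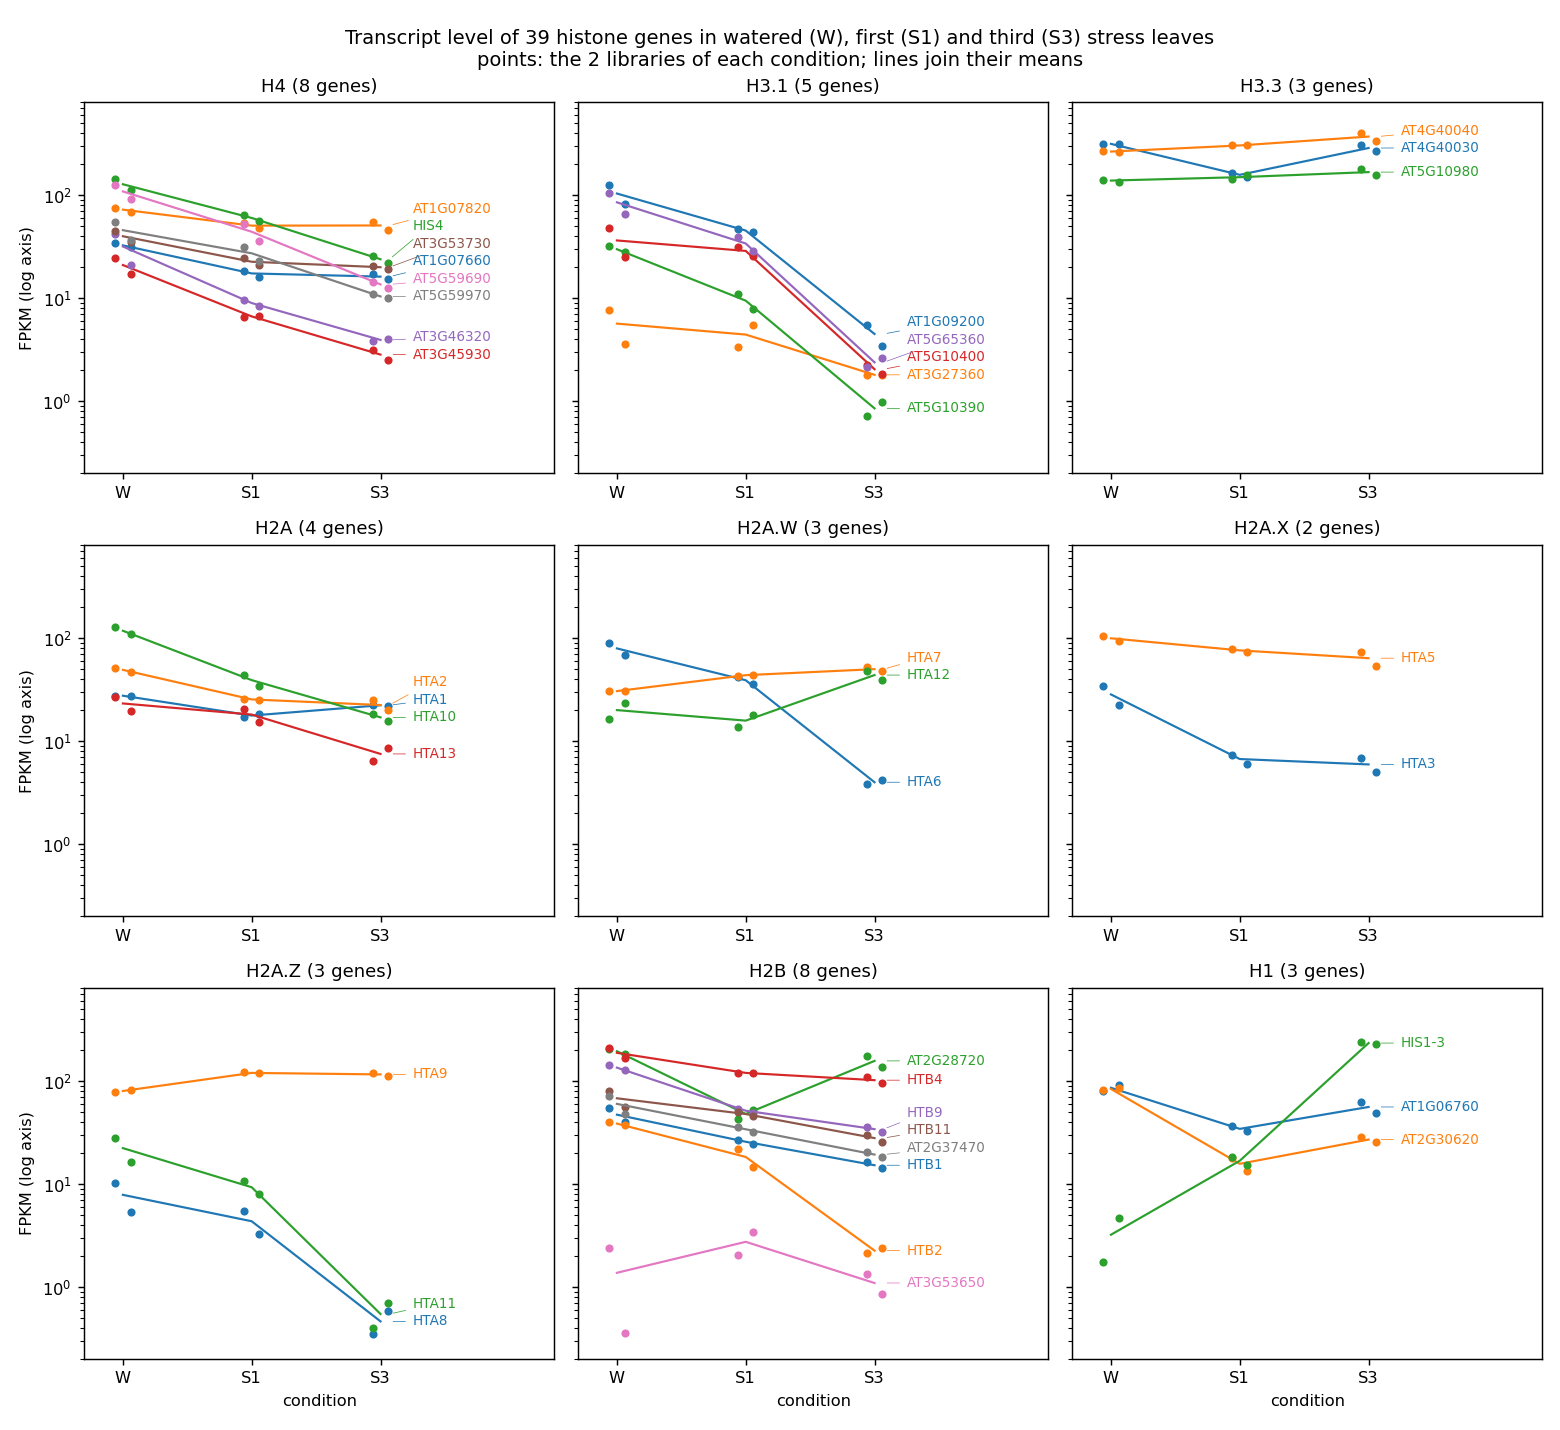
FPKM (log axis) of the 39 histone genes by condition, in 1 panel per class. Points are the 2 libraries of each condition and lines join their means. The H3.1 genes end between 0.85 and 4.49 FPKM in S3 while the H3.3 genes end between 168 and 372 FPKM, HTA6, HTA8 and HTA11 part from the other genes of their classes, and HIS1-3 crosses the other H1 genes.

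The 25 canonical core genes (H4, H3.1, H2A and H2B) had mostly fallen by S3. None of the 25 was higher in S1 or S3 than in W by the criteria, 11 were lower in S1 and 18 (72.0%) were lower in S3, with medians of -0.87 and -1.56 on the log2 scale, where the medians of all genes tested were 0.00 and 0.01. Of the 11 core variants (H3.3, H2A.W, H2A.X and H2A.Z), 2 (18.2%) were lower in S1 than in W, against 12.1% of all genes tested. In S3 relative to W, 4 (36.4%) were lower and 1 (9.09%) was higher, against 14.4% and 15.3% of all genes tested. The medians of the core variants were -0.38 in S1 and -0.14 in S3. Between S3 and S1, 11 canonical genes (44.0%) were lower in S3 and 1 (4.0%) was higher. Of the core variants, 3 (27.3%) were lower in S3 than in S1 and 1 (9.09%) higher, against 6.71% and 5.55% of all genes tested. The canonical and variant groups, drawn by protein class, were therefore not separated gene by gene. HTA6, HTA8, HTA11 and HTA3 of the variant group fell, and the W mean of AT1G07820, a canonical gene, was 1.42 times its S3 mean. Whether each gene of a group is expressed during or outside replication was not tested.

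**Figure D2:**
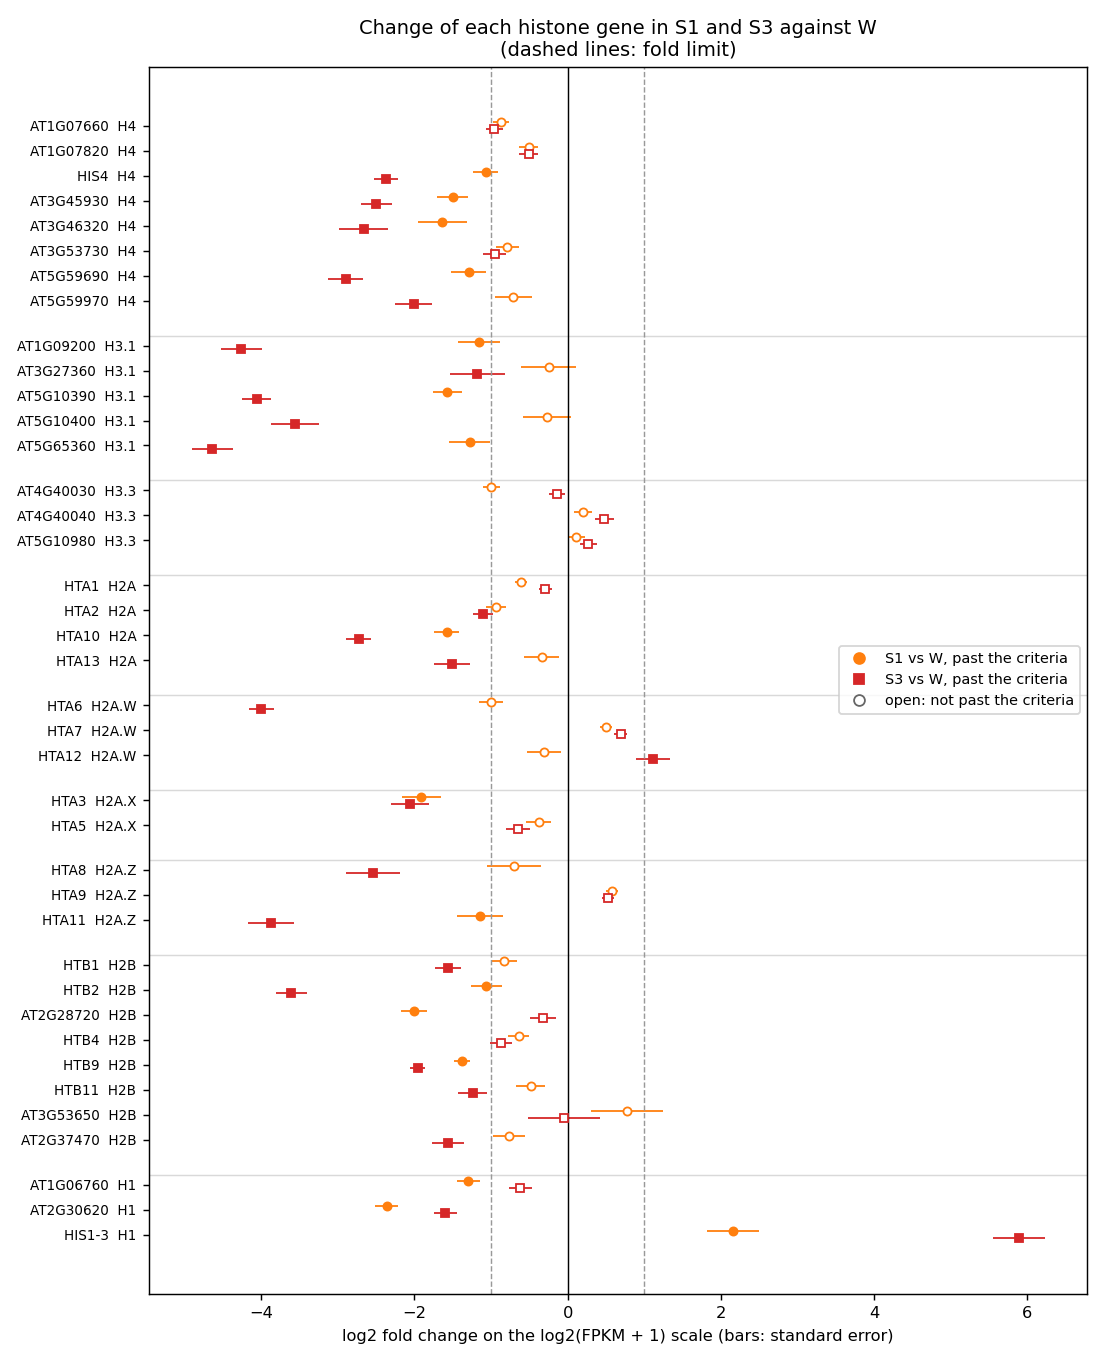
Log2 fold change of each histone gene in S1 (circles) and S3 (squares) relative to W, with standard errors. Filled symbols passed the criteria. AT5G65360 reached -4.64 and HIS1-3 5.89 in S3, and within H2A.W and H2A.Z the squares lie on both sides of 0.

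The 5 H3.1 genes encode the H3 that is loaded behind the replication fork. AT1G09200 (chr1:2971571-2972334, minus strand) measured 126 and 82.7 FPKM in W, 47.3 and 43.5 FPKM in S1, then 5.53 and 3.45 FPKM in S3. AT5G65360 (chr5:26119859-26120581, minus strand) measured 105 and 65.5 FPKM in W, 39.1 and 28.9 FPKM in S1, then 2.14 and 2.63 FPKM in S3. The conditions did not overlap for either gene, and on the log2 scale the step between S1 and S3 was the larger of the steps. For AT1G09200 the log2 fold change was -1.16 ± 0.27 (SE) in S1 relative to W (limma adjusted p = 0.0174) and -3.10 ± 0.27 in S3 relative to S1 (limma adjusted p = 0.00203). For AT5G65360 it was -1.28 ± 0.27 (limma adjusted p = 0.0124) and -3.36 ± 0.27 (limma adjusted p = 0.00165), so that the W mean was 35.8 times the S3 mean.

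The neighbouring H3.1 genes AT5G10390 and AT5G10400 on chromosome 5 were both low in S3 but differed in S1. AT5G10390 (chr5:3268847-3269594, minus strand) measured 31.8 and 28.0 FPKM in W, 11.1 and 7.87 FPKM in S1, then 0.723 and 0.977 FPKM in S3. AT5G10400 (chr5:3270172-3270957, minus strand) measured 47.6 and 25.2 FPKM in W, 31.7 and 25.9 FPKM in S1, then 2.24 and 1.85 FPKM in S3. The S1 and W libraries of AT5G10400 overlapped, and both of its S3 libraries lay far below. AT5G10390 was lower in S1 than in W (log2 fold change -1.57 ± 0.19, limma adjusted p = 0.00193), and the value of AT5G10400 was -0.27 ± 0.31 (limma adjusted p = 0.522); the difference between them was not tested. Their changes in S3 relative to S1 were -2.49 and -3.29 on the log2 scale (limma adjusted p = 0.00145 and 0.00241). The fifth gene, AT3G27360, ranged from 1.79 to 7.71 FPKM over the libraries, overlaps AT3G27380 on the same strand (16.1 to 37.8 FPKM) and passed only in S3 relative to W (-1.18 ± 0.36, limma adjusted p = 0.0398); this call was lost in 8 of the alternatives, among them the one without W replicate 1 (-0.72).

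H3.1 calls in S3 relative to S1 held in every alternative for these 4 genes, whereas some S1 calls rested on single libraries. The S1 call of AT1G09200 was lost without W replicate 1 (-0.85), S1 replicate 1 (-1.21) or S1 replicate 2 (-1.10), and that of AT5G65360 without W replicate 1 (-0.94) or S1 replicate 2 (-1.07) and with only the 4 libraries compared in the fit. Left without W replicate 1, the S1 value of AT5G10400 turned to 0.18.

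The 3 H3.3 genes, whose product is loaded outside replication, were the most abundant H3 transcripts in every library. AT4G40030 (chr4:18555532-18557106, minus strand) measured 314 and 318 FPKM in W, 164 and 152 FPKM in S1, then 309 and 267 FPKM in S3. AT4G40040 (chr4:18557149-18558945, minus strand), its neighbour, measured 267 and 264 FPKM in W, 306 and 305 FPKM in S1, then 405 and 339 FPKM in S3. AT5G10980 (chr5:3472405-3473570, minus strand) measured 142 and 136 FPKM in W, 144 and 156 FPKM in S1, then 180 and 156 FPKM in S3. No H3.3 gene met the criteria in any comparison. AT4G40030 stood at a log2 fold change of -1.0 ± 0.11 in S1, just short of the limit of 1 before rounding (limma adjusted p = 0.00162), and stood 0.86 ± 0.11 higher in S3 than in S1 (limma adjusted p = 0.00586). AT4G40040 was 0.48 ± 0.12 higher in S3 than in W (limma adjusted p = 0.0233), under the fold limit. The lowest H3.3 value in S3 relative to W was -0.14, while the highest H3.1 value was -1.18.

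Summed over genes, H3.1 had 319 and 205 FPKM in W, 132 and 112 FPKM in S1, then 12.4 and 10.7 FPKM in S3, while H3.3 had 723 and 719 FPKM in W, 614 and 613 FPKM in S1, then 894 and 762 FPKM in S3. As a share of all H3.1 and H3.3 FPKM, H3.1 made up 30.6% and 22.2% in W, 17.8% and 15.4% in S1, then 1.37% and 1.39% in S3. These shares are given as a description, with no test. Whether fewer cells made H3.1 or each cell held less of its RNA cannot be told apart in these bulk samples, and the same holds for every gene described here.

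**Figure D3:**
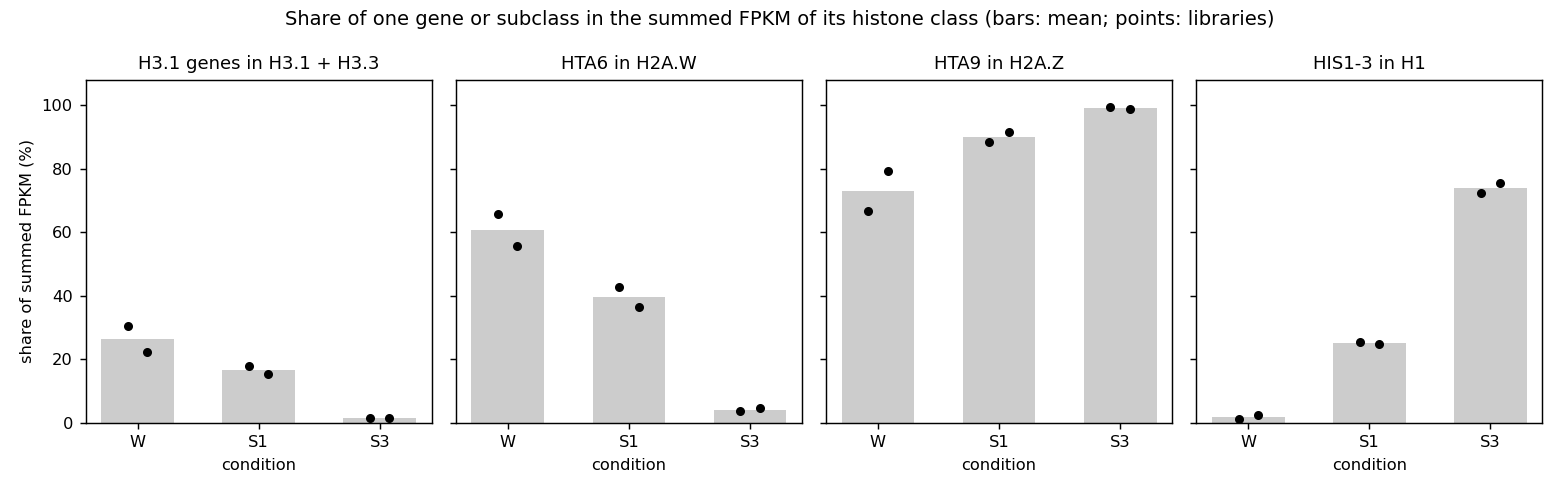
Share of summed FPKM (%) taken by the H3.1 genes within H3.1 and H3.3, HTA6 within H2A.W, HTA9 within H2A.Z and HIS1-3 within H1, by condition. Bars are means and points the 2 libraries. H3.1 and HTA6 end at 1.38% and 4.10% in S3, and HTA9 and HIS1-3 at 99.1% and 73.9%.

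H4 has no variant among the 8 loci, and these genes differed in how far they fell. HIS4 (chr2:12329345-12330059, minus strand) measured 144 and 112 FPKM in W, 63.9 and 56.5 FPKM in S1, then 25.8 and 22.0 FPKM in S3. AT5G59690 (chr5:24051474-24052218, plus strand) measured 125 and 92.8 FPKM in W, 52.5 and 35.9 FPKM in S1, then 14.4 and 12.7 FPKM in S3. Both were lower at each step with no overlap between conditions. HIS4 changed by -1.07 ± 0.16 and then by -1.30 ± 0.16 (limma adjusted p = 0.00373 and 0.00477), and AT5G59690 by -1.29 ± 0.23 and then by -1.61 ± 0.23 (limma adjusted p = 0.00728 and 0.0073).

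AT3G45930, AT3G46320 and AT5G59970 are H4 genes of lower level that fell as well. AT3G45930 measured 24.6 and 17.3 FPKM in W, 6.56 and 6.75 FPKM in S1, then 3.12 and 2.53 FPKM in S3. AT3G46320 measured 42.4 and 21.2 FPKM in W, 9.53 and 8.40 FPKM in S1, then 3.82 and 4.03 FPKM in S3. AT5G59970 measured 55.2 and 36.5 FPKM in W, 31.4 and 23.2 FPKM in S1, then 10.9 and 9.94 FPKM in S3. By S3 these genes stood at -2.50, -2.66 and -2.01 on the log2 scale relative to W, and AT3G45930 and AT3G46320 had already passed in S1 (-1.5 ± 0.20 and -1.64 ± 0.32, limma adjusted p = 0.00251 and 0.00963). The other H4 genes, AT1G07660, AT1G07820 and AT3G53730, were lower by 0.51 to 0.96 on the log2 scale in S3 relative to W. These changes were under the fold limit (limma adjusted p = 0.00132 to 0.019), and the genes met the criteria in no comparison. AT1G07820, at 46.2 to 75.7 FPKM, made up 15.3% of H4 FPKM in W, 21.4% in S1, then 35.8% in S3 (means of 2 libraries).

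Of the 8 H4 genes, 6 are near-identical in pairs, so that the split of reads between partners is uncertain, while HIS4 and AT3G53730 share no 50-base window with another gene. The coding sequences of AT1G07660 and AT1G07820 are 98.1% identical, those of AT3G45930 and AT3G46320 97.4% and those of AT5G59690 and AT5G59970 97.1%, and in the first 2 pairs between 22.2% and 27.9% of all 50-base windows of a transcript are shared exactly. The partners of each pair moved in the same direction in S3 relative to W. The S1 call of HIS4 was lost without W replicate 1 (-0.89) or S1 replicate 2 (-0.99), and that of AT3G46320 without either S1 library (-1.73 and -1.56); the S3 against S1 call of AT3G45930 was lost without any 1 of the S1 and S3 libraries (-0.89 to -1.12) and with libraries scaled to the same sum (-0.94), that of AT5G59690 without either S3 library (-1.70 and -1.53) and that of AT5G59970 without S1 replicate 1 or either S3 library (-1.08 to -1.36).

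Among the 4 canonical H2A genes, HTA10 was the most abundant in W and fell furthest. HTA10 (chr1:18926811-18927746, plus strand) measured 127 and 110 FPKM in W, 43.9 and 34.2 FPKM in S1, then 18.3 and 15.7 FPKM in S3. It changed by -1.58 ± 0.16 in S1 relative to W and by a further -1.15 ± 0.16 in S3 (limma adjusted p = 0.00111 and 0.00672), the later call being lost without S1 replicate 1 (-0.97) or S3 replicate 2 (-1.04). HTA13 (chr3:7229390-7230146, plus strand) measured 26.7 and 19.7 FPKM in W, 20.7 and 15.4 FPKM in S1, then 6.41 and 8.60 FPKM in S3. Its S1 and W libraries overlapped, and it was lower in S3 than in S1 by 1.16 ± 0.23 on the log2 scale (limma adjusted p = 0.0187), a call that no fit without 1 of the S3 or S1 libraries kept. HTA13 overlaps AT3G20680 on the other strand, which measured 23.4 to 35.2 FPKM, and strand is not stated to have been used in the counting. HTA1, the H2A gene known from Agrobacterium transformation, ranged from 17.0 to 27.6 FPKM and was lowest in S1. It changed by -0.61 ± 0.08 in S1 relative to W (limma adjusted p = 0.00263), under the fold limit. HTA2, at 19.9 to 51.8 FPKM, passed only in S3 relative to W (-1.11 ± 0.13, limma adjusted p = 0.00146). That call was lost without S3 replicate 2 (-0.95).

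The H2A.W genes did not move together. HTA6 (chr5:24115354-24116220, minus strand) measured 90.3 and 68.7 FPKM in W, 42.4 and 35.7 FPKM in S1, then 3.79 and 4.17 FPKM in S3. HTA12 (chr5:575225-577216, plus strand) measured 16.5 and 23.5 FPKM in W, 13.7 and 17.9 FPKM in S1, then 48.3 and 39.2 FPKM in S3. HTA7 stood between 30.4 and 30.9 FPKM in W, 43.3 and 44.2 FPKM in S1, then 47.8 and 52.2 FPKM in S3. HTA6 was the highest of the H2A.W genes in W and the lowest in S3, with no overlap between conditions. It fell by 3.0 ± 0.16 on the log2 scale in S3 relative to S1 (limma adjusted p = 0.000711), after -1.0 ± 0.16 in S1 relative to W, just short of the fold limit (limma adjusted p = 0.00537). HTA12 rose by 1.42 ± 0.22 in S3 relative to S1 (limma adjusted p = 0.00955), and HTA7 was 0.69 ± 0.08 higher in S3 than in W (limma adjusted p = 0.00138), under the fold limit.

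The sum of the H2A.W genes was 137 and 123 FPKM in W, 99.4 and 97.8 FPKM in S1, then 104 and 91.2 FPKM in S3, while HTA6 made up 65.8% and 55.8% of it in W, 42.7% and 36.5% in S1, then 3.64% and 4.57% in S3. The HTA12 call in S3 relative to S1 was lost without S1 replicate 1 or either S3 library (1.23 to 1.56), and that relative to W without W replicate 1 (0.86) or S3 replicate 1 (0.96). HTA12 shares its locus with the H2B gene AT5G02570 on the other strand, which went the other way and was at most 0.401 FPKM in S3.

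The H2A.Z genes did not move together either. HTA11 (chr3:20196140-20197726, plus strand) measured 28.2 and 16.3 FPKM in W, 10.6 and 7.95 FPKM in S1, then 0.401 and 0.690 FPKM in S3. HTA8 (chr2:16219220-16220928, minus strand) measured 10.3 and 5.36 FPKM in W, 5.41 and 3.26 FPKM in S1, then 0.345 and 0.578 FPKM in S3. HTA9, the most abundant H2A.Z gene, ranged from 77.8 to 82.5 FPKM in W, from 119 to 122 in S1 and from 112 to 120 in S3. HTA11 and HTA8 ended below 1 FPKM, and HTA9 was above its W libraries in all 4 stressed libraries. In S3 against S1, HTA11 fell by 2.73 ± 0.30 (limma adjusted p = 0.00355) and HTA8 by 1.84 ± 0.35 (limma adjusted p = 0.0158) on the log2 scale. HTA9 was 0.58 ± 0.08 higher in S1 than in W (limma adjusted p = 0.00348) and met the fold limit nowhere. HTA9 held 66.8% and 79.2% of H2A.Z FPKM in W, 88.3% and 91.4% in S1, then 99.4% and 98.9% in S3. The S1 call of HTA11 (-1.14 ± 0.30, limma adjusted p = 0.0253) was kept only without W replicate 2 among the fits without 1 library, being -0.76 without W replicate 1, and was lost with only the 4 libraries compared; the S3 against S1 call of HTA8 was lost without any 1 of the S1 and S3 libraries (-1.55 to -2.14).

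Of the H2A.X genes, HTA3 (chr1:20414316-20415287, minus strand) measured 34.5 and 22.2 FPKM in W, 7.34 and 6.03 FPKM in S1, then 6.83 and 5.03 FPKM in S3, and HTA5 ranged from 54.2 to 105 FPKM over the libraries. The W mean of HTA3 was 4.24 times its S1 mean (log2 fold change in S1 relative to W -1.91 ± 0.25, limma adjusted p = 0.00268), and its S3 and S1 libraries overlapped. HTA5 changed by -0.65 ± 0.16 in S3 relative to W (limma adjusted p = 0.0206), under the fold limit. Part of HTA3 is also covered by AT1G54680 on the other strand, at 3.97 to 6.72 FPKM. Over all H2A genes, canonical H2A held 37.2% of FPKM in W, 24.1% in S1, then 19.6% in S3, and H2A.Z held 18.8% in W, 32.2% in S1, then 33.2% in S3, as means of 2 libraries.

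H2B had the widest range of responses among the canonical classes. HTB2 (chr5:7651868-7652714, minus strand) measured 39.7 and 37.5 FPKM in W, 22.0 and 14.6 FPKM in S1, then 2.11 and 2.40 FPKM in S3. HTB9 (chr3:16897287-16898013, minus strand) measured 143 and 128 FPKM in W, 53.8 and 49.2 FPKM in S1, then 35.8 and 32.3 FPKM in S3. AT2G28720 (chr2:12326808-12327808, plus strand) measured 206 and 184 FPKM in W, 43.0 and 52.9 FPKM in S1, then 176 and 137 FPKM in S3. HTB2 thus fell at each step, HTB9 mainly in S1, and AT2G28720 was low in S1 alone. HTB2 changed by -1.06 ± 0.20 and then by -2.55 ± 0.20 (limma adjusted p = 0.00854 and 0.00156), the S1 call being lost without W replicate 1 (-1.02) or S1 replicate 2 (-0.78). HTB9 changed by -1.38 ± 0.10 in S1 (limma adjusted p = 0.000466). On the other strand HTB9 overlaps AT3G45970, which measured 6.56 and 9.72 FPKM in W, 45.3 and 49.8 FPKM in S1, then 113 and 107 FPKM in S3, and the part of its reads in the HTB9 values was not tested.

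AT2G28720 was the only histone gene of the [-/+] type. It was -2.01 ± 0.17 on the log2 scale in S1 relative to W (limma adjusted p = 0.000674), rose by 1.68 ± 0.17 in S3 relative to S1 (limma adjusted p = 0.00291), and its S3 value was -0.32 ± 0.17 relative to W (limma adjusted p = 0.172). Both steps held in every alternative run. The gene supplied 25.5% and 27.8% of H2B FPKM in W, 12.2% and 15.4% in S1, then 45.0% and 42.0% in S3. HTB4, the other abundant H2B gene, ranged from 95.7 to 210 FPKM and met the criteria nowhere. In S3 relative to W it stood at -0.87 ± 0.14 (limma adjusted p = 0.00442), under the fold limit. HTB1, HTB11 and AT2G37470 ranged together from 14.3 to 79.7 FPKM and passed in S3 relative to W alone, at -1.56, -1.24 and -1.56, HTB11 not without W replicate 1 (-0.99). AT3G53650 was scarce, at 0.356 to 3.45 FPKM, and the sign of its S3 value (-0.05) changed between settings.

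The 3 H1 genes diverged more than any other class in S1 and S3 relative to W. AT1G06760 (chr1:2076504-2077767, minus strand) measured 79.6 and 92.4 FPKM in W, 36.2 and 32.4 FPKM in S1, then 63.0 and 49.0 FPKM in S3. AT2G30620 (chr2:13044931-13046682, plus strand) measured 82.2 and 85.3 FPKM in W, 17.8 and 13.5 FPKM in S1, then 28.5 and 25.4 FPKM in S3. HIS1-3 (chr2:7845923-7847031, plus strand) measured 1.76 and 4.66 FPKM in W, 18.4 and 15.2 FPKM in S1, then 239 and 228 FPKM in S3. The first pair, the main H1 genes of unstressed leaves here, were lowest in S1 and the stress-linked H1 rose at each step, without overlap between conditions for any of them. HIS1-3 was 2.16 ± 0.34 higher on the log2 scale in S1 than in W (limma adjusted p = 0.00484) and a further 3.73 ± 0.34 higher in S3 than in S1 (limma adjusted p = 0.00234), which placed the S3 mean at 72.8 times the W mean and 13.9 times the S1 mean. The first ratio rests on W libraries that differ, being 133 without W replicate 2 and 50.1 without W replicate 1, and the ratio of the S1 to the W mean, 5.22, was 9.55 without W replicate 2 and 3.6 without W replicate 1.

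AT1G06760 and AT2G30620 changed by -1.3 ± 0.15 and -2.36 ± 0.15 on the log2 scale in S1 relative to W (limma adjusted p = 0.00185 and 0.000293). In S3 they stood 0.68 ± 0.15 and 0.76 ± 0.15 above S1 (limma adjusted p = 0.0272 and 0.0174), which is under the fold limit, and AT2G30620 stood 1.60 ± 0.15 below W (limma adjusted p = 0.000676). All H1 calls held in every alternative. HIS1-3 supplied 1.07% and 2.56% of H1 FPKM in W, 25.4% and 24.9% in S1, then 72.3% and 75.4% in S3, and by level it was the 38th, 29th and 3rd of the 39 histone genes in W, S1 and S3. The sum of the 3 genes was 164 and 182 FPKM in W, 72.4 and 61.0 FPKM in S1, then 331 and 303 FPKM in S3. The genes that overlap AT1G06760 and AT2G30620 on the other strand and have a listed value did not exceed 0.518 FPKM.

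Genes that act on histones or in DNA replication were set beside them. Of 19 genes of replication and S phase, 12 (63.2%) were lower and 1 (5.26%) higher in S1 than in W. In S3 relative to S1, 10 (52.6%) were lower and none higher. In S3 relative to W, 15 (78.9%) were lower and 1 (5.26%) higher (median -2.25). Of all genes tested, 12.1%, 6.71% and 14.4% were lower and 13.7%, 5.55% and 15.3% higher in these 3 comparisons. PCNA1, the sliding clamp of the replication fork, measured 18.5 and 12.4 FPKM in W, 3.32 and 1.66 FPKM in S1, then 0.101 and 0.125 FPKM in S3 (log2 fold change of S3 relative to W -3.86 ± 0.30, limma adjusted p = 0.000409). MCM7 and MCM2, subunits of the replicative helicase, fell by 2.70 ± 0.23 and 2.58 ± 0.18 in S3 relative to W (limma adjusted p = 0.000546 and 0.000334). The gene that was higher was E2FB, a cell cycle transcription factor. Of 12 other cell cycle genes, 5 (41.7%) were lower in S1 and 7 (58.3%) in S3 than in W, and none was higher. CYCD3;1, CYCD3;3 and CYCA2;3, all cyclins, stood at -1.99, -1.92 and -1.60 in S3 relative to W. Between S3 and S1, limma called none of these 12 cell cycle genes (median -0.28), against 12.3% of all genes tested. Of the 12, 11 lay below 0, 3 had an unadjusted p below 0.05 and 1 an adjusted p of at most 0.05. The last, CYCA2;3, stood at -0.75 ± 0.14 (limma adjusted p = 0.0149), under the fold limit. Its S1 mean was 6.24 times its S3 mean, since this scale understates changes of low genes.

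Of 18 histone chaperones and chromatin remodellers, 3 (16.7%) were lower in S1 and 4 (22.2%) in S3 than in W, near the 12.1% and 14.4% of all genes tested, 1 was higher in S3, and the medians were -0.01 and -0.08. DDM1, a remodeller needed for heterochromatin, measured 3.55 and 2.22 FPKM in W, 0.548 and 0.521 FPKM in S1, then 0.127 and 0.0747 FPKM in S3 (S3 relative to W -1.80 ± 0.17, limma adjusted p = 0.000731). FAS1, the large subunit of the factor that loads new H3 and H4 at replication forks, measured 4.29 and 2.86 FPKM in W, 1.04 and 0.844 FPKM in S1, then 0.399 and 0.465 FPKM in S3 (S3 relative to W -1.66 ± 0.17, limma adjusted p = 0.000972). NAP1;3, of a family of H2A and H2B chaperones, fell by 1.43 ± 0.15 in S3 relative to W (limma adjusted p = 0.00112). HIRA, which loads H3.3, had 3.3 and 3.09 FPKM in W, 2.54 and 2.78 FPKM in S1, then 4.12 and 4.75 FPKM in S3. It was called in no comparison. FAS2 and MSI1, subunits of the same factor as FAS1, were called in no comparison either. They stood at -0.21 ± 0.15 and 0.41 ± 0.12 in S3 relative to W. ASF1B was the only 1 of the 18 genes (5.56%) lower in S3 than in S1, against 6.71% of all genes tested. It changed by -1.38 ± 0.14 (limma adjusted p = 0.00271). HIRA, FAS2, MSI1 and ASF1B were chosen for mention after their values were seen.

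**Figure D4:**
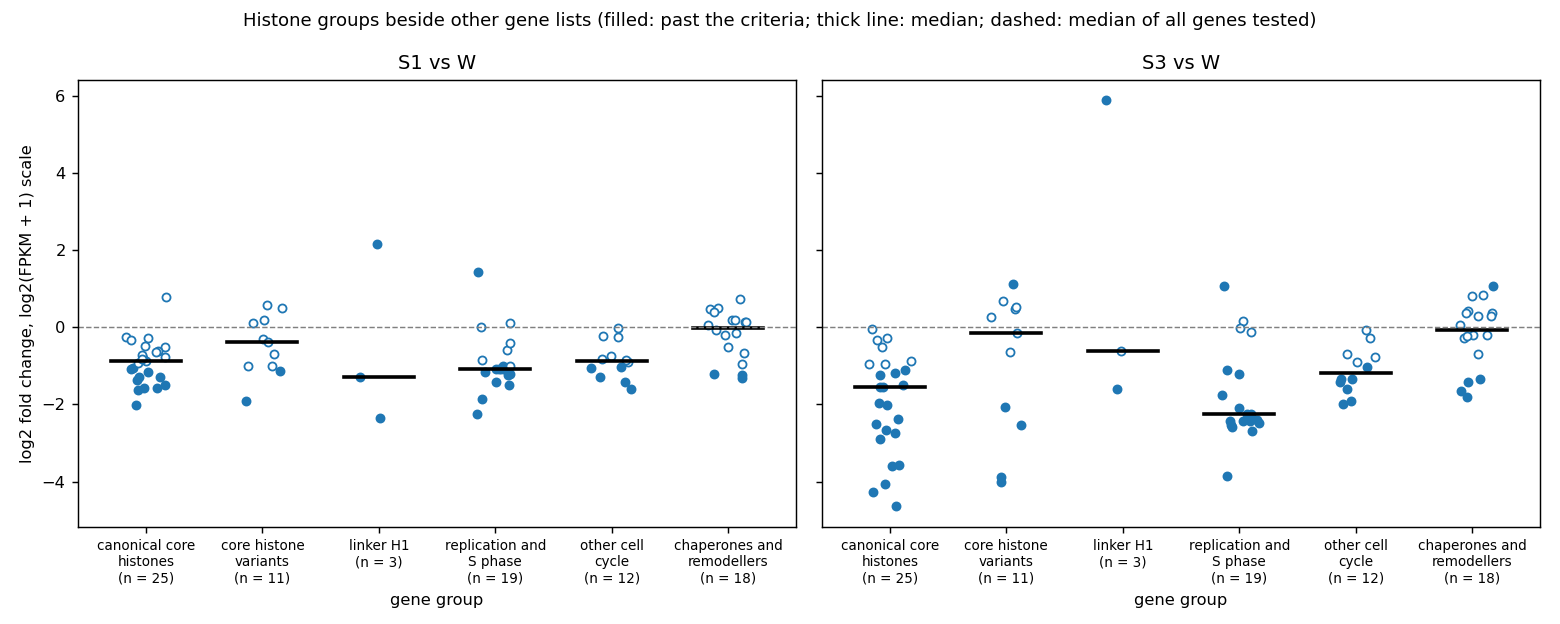
Log2 fold changes in S1 and S3 relative to W of the canonical core histones, core variants, linker H1, replication and S phase genes, other cell cycle genes, and chaperones and remodellers. Filled points passed the criteria, thick lines are medians and the dashed line is the median of all genes tested. The medians in S3 are -1.56, -0.14, -0.62, -2.25, -1.18 and -0.08.

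The libraries of a condition differed from each other in these genes, most in W. Replicate 1 was above replicate 2 for 24 of 25 canonical core genes in W (96.0%), 19 in S1 (76.0%) and 19 in S3 (76.0%), against 50.2%, 51.6% and 52.7% of the 18454 genes whose mean reached 1 FPKM in any condition. Over the canonical core genes, replicate 1 exceeded replicate 2 by a median log2 ratio of 0.42 in W, against 0.16 in S1 and 0.17 in S3. For the replication and S phase genes the counts were 17 of 19 in W (89.5%), 17 in S1 (89.5%) and 8 in S3 (42.1%), with medians of 0.47, 0.16 and -0.03. ANT, a gene of growing organ primordia, stood at 2.33 and 1.43 FPKM in W, 0.314 and 0.128 FPKM in S1, then 0.0995 and 0.0789 FPKM in S3, whereas CLV3, WUS and CUC2 were at 0 in all libraries, and the part of young, dividing tissue in these results was not tested. With W replicate 1 left out, the median of the canonical core genes in S1 relative to W was -0.81, against -0.87 with all libraries.

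Calls were also counted by the presence of the octamer. Relative to W, 7 of the 10 histone genes with the octamer and 16 of the 29 without it were lower in S3, with medians of -2.81 and -1.18. Within the canonical core genes these counts were 6 of 7 and 12 of 18, with medians of -2.90 and -1.40. Of the 25 tested genes outside the histones with an octamer in the window, 4 (16.0%) were lower and 5 higher in S3 than in W, with a median of -0.02, where 14.4% of all genes tested were lower and 15.3% higher. These are counts of exact letter matches, given with no test. Genes counted as without the octamer can hold close but inexact matches, as HIS4, AT3G45930, AT3G46320 and AT5G59970 do.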

How the data were processed

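The values are gene-level FPKM deposited by the authors, 1 column per library for 33555 genes. Per the study's methods, reads were mapped with TopHat to TAIR10 and quantified with Cuffdiff under default settings, and per the file headers W and S1 came from 1 run and S3 from another. They carry no read counts, and the depths listed by the study were not used. Names, gene models and sequences are from RefSeq (TAIR10.1), where all 39 loci were found.

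log2(FPKM + 1) was tested with limma 3.58.1 (R 4.3.3) over the 6 libraries, with a variance trend and Benjamini-Hochberg adjustment over the 24759 genes above 0 in any library. The residual degrees of freedom were 3 and the prior ones 2.07. The fit was run on simulated data without scarce genes and with the same spread for every gene. That run does not check the fit for scarce genes or for genes whose libraries differ more. The criteria follow the study's methods; its Cuffdiff test needs the reads. Fold changes on this scale understate changes of low genes. Full values are given for genes that passed in S1 relative to W or S3 relative to S1 and for all H1 and H3.3 genes, and ranges for the others; from other lists, up to 3 genes that passed with the largest S3 against W change are named. The members, gene lists and rules were chosen with earlier results of these data known. Alternatives changed the scaling, pseudocount, filter, libraries, block, trend or fold limit.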

Additional observations from a re-analysis of the deposited data

How the results depend on the processing

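Of 117 values (39 histone genes in 3 comparisons), 58 passed the criteria, 41 of these under every alternative, and none changed sign while passing. Fits without 1 library leave a condition with a lone library that is assumed to vary like the others. Over those fits, histone genes called lower in S1 relative to W numbered 9 to 20 and higher 1 to 2, lower in S3 relative to S1 8 to 15, and higher in S3 relative to W 1 to 2. With no fold limit, the histone counts were 25 lower and 3 higher in S1 relative to W, 7 higher in S3 relative to S1 and 5 higher in S3 relative to W, and the counts over all genes were 6152 lower and 6609 higher, 3859 lower and 3773 higher, and 6470 lower and 7151 higher in the 3 comparisons, since more genes then pass. A pseudocount of 0.1 moved the median of the canonical core genes in S3 relative to S1 to -1.19, since low values count for more. Signs changed for genes that had not passed: AT3G27360 in S1 relative to W (-0.71 to 0.21 without 1 library), AT5G10400 in S1 relative to W (-0.71 to 0.18), HTA3 in S3 relative to S1 (-0.34 to 0.03), HTA9 in S3 relative to S1 (0.03 with libraries scaled to the same sum) and AT3G53650 in S3 relative to W (0.13 with a pseudocount of 0.1, -0.70 to 0.61 without 1 library). With the replicate number as a block, 22 histone genes in place of 23 were lower in S3 relative to W, AT3G27360 being lost. No other histone call changed. Deviations of same-numbered libraries correlated at 0.16 (W and S1), 0.006 (W and S3) and -0.02 (S1 and S3) over 17453 genes. These correlations do not settle whether same-numbered libraries were matched. Replicate 1 was above replicate 2 for 79.5%, 76.9% and 76.9% of the 39 histone genes in W, S1 and S3. Among genes reaching 1 FPKM in any condition it was above for 50.2%, 51.6% and 52.7%. Read counts per gene were not available to the fit, and with 2 libraries a condition changes under the fold limit in scarce genes such as AT3G53650 could not be resolved.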

Other observations

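Histone genes outside the 39 loci were mostly scarce in these leaves. Of 10 such loci, 1 (10.0%) was lower in S1 than in W and 1 (10.0%) lower in S3 than in W, both CENH3, the centromeric H3. Of all genes tested, 12.1% and 14.4% were lower in these comparisons. CENH3 measured 3.43 and 2.52 FPKM in W, 0.869 and 0.925 FPKM in S1, then 0.370 and 0.228 FPKM in S3 (limma log2 fold change of S3 relative to W -1.61 ± 0.14, limma adjusted p = 0.000548). The H2B gene AT5G02570 was the only 1 of the 10 loci (10.0%) lower in S3 than in S1, against 6.71% of all genes tested. It changed by -1.76 ± 0.37 (limma adjusted p = 0.0228), at 0.289 and 0.401 FPKM in S3, against 3.19 and 3.92 FPKM in S1. HTA4 measured 24.4 and 8.0 FPKM in W, 7.41 and 14.2 FPKM in S1, then 11.7 and 28.1 FPKM in S3, with libraries that overlapped between all conditions, and MGH3, the H3 of male gametes, was listed above 0 in 1 library alone.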
